A study of Mus musculus with 36 samples.

Results

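The comparison set the response of tumour-associated macrophages (TAMs) to a pellet releasing gamma-aminobutyric acid (GABA) against the response of CD8 T cells from the same kind of tumour. It is an interaction: the log2 difference between GABA and placebo in TAMs minus the same difference in CD8 T cells. It took 24 of the 36 libraries of the series, 6 in each of 4 groups, and 7100 of the 24781 genes in the count table, those with a mean count above 1 over the 12 libraries of each cell type. A further 2214 genes passed this minimum in TAMs alone and 289 in CD8 T cells alone, and 15178 passed it in neither.

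All 24 libraries came from muMt-/- mice on the C57BL/6J background, a strain without mature B cells, that carried MC38 tumours, a mouse colon adenocarcinoma line injected into the skin. Cells were sorted on day 7 after inoculation, 100 per library, TAMs as CD45+CD11b+F4/80high and T cells as CD45+TCRbeta+CD8+. The groups were muMt-/- TAMs with and without GABA and muMt-/- CD8 T cells with and without GABA. The labels name no treatment for the groups without GABA, and the study's methods describe placebo pellets for them, so they are called placebo here. The labels give neither age nor sex (for its mice as a whole the study states both sexes and 2 to 5 months), and the methods state 1 library per mouse without saying whether a mouse gave both a TAM and a CD8 library.

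GABA is best known as an inhibitory neurotransmitter, made from glutamate by glutamate decarboxylases and sensed by chloride channels and G protein-coupled receptors that some immune cells also carry. Macrophages in a tumour take up debris, present antigen and release cytokines, while CD8 T cells recognise peptides on MHC class I molecules and kill the cell that shows them. A gene moved alike in both cells, in direction and size, has a mean response away from 0 and an interaction near 0. A gene that moves by different amounts, in 1 cell type only or in opposite directions has an interaction away from 0. Except for opposite directions, its mean response is away from 0 too.

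The libraries differed in depth by cell type. TAM libraries held 100254 to 253608 molecules with placebo (median 149960) and 151856 to 262606 with GABA (median 192775). CD8 libraries held 51064 to 77839 with placebo (median 67121.5) and 65356 to 98015 with GABA (median 80283). The ranges of placebo and GABA overlapped in both cell types, and each TAM library held more molecules than any CD8 library. The GABA libraries held 1.26 times as many molecules in TAMs (two-sided exact permutation test on log2 totals, p = 0.171) and 1.20 times as many in CD8 T cells (exact p = 0.0887), with adjusted p = 0.256 for both over 3 comparisons. The difference between the 2 log2 ratios was 0.07 (exact permutation p = 0.813, adjusted p = 0.813), and 0.00216 is the smallest p that 6 libraries against 6 allow.

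The markers of the sorted cells were present, T cell markers were low in TAMs, and macrophage markers were found in CD8 libraries too. T cell markers held 5502 molecules in the 12 CD8 libraries, with Thy1 most abundant, against 66 in the 12 TAM libraries, where 7 of the 23 markers, among them Cd3g, Cd5 and Lat, stood at 0. Macrophage markers held 41075 molecules in TAMs, led by the lipid carrier Apoe, and 2549 in CD8 libraries, led by the lysosomal protease Ctsb. Their mean share was 1.87% with placebo and 1.86% with GABA in TAMs, and 0.293% and 0.269% in CD8 T cells. B cell markers summed to 44 molecules in TAM and 10 in CD8 libraries, with Pax5 at 0 in both. In bulk libraries, fewer cells of a type and less RNA per cell cannot be told apart, here and below.

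A pair of libraries that stood apart from their groups was left out together in an alternative chosen after seeing the data. Other libraries far from their group in some measure are listed near the end. GABA TAM replicate 1 had a median correlation of 0.842 with the other libraries of its group, where the others had 0.906 to 0.923. Placebo CD8 replicate 1 carried 0.809% of its molecules on macrophage markers, where the other 5 carried 0.121% to 0.320%.

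Of 9 lists of cell type and RNA quality markers compared between GABA and placebo in each cell type (18 comparisons, two-sided exact permutation test), the smallest p belonged to nuclear RNA in TAMs, which lay at a mean of 0.634% with placebo and 0.412% with GABA (p = 0.00649, adjusted p = 0.117). The other 17 comparisons had adjusted p values of 0.468 or more. Stroma and vessel markers did not pass this test in either cell type, and their values are given below beside the genes they varied with.

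No gene passed the interaction test. At an adjusted p under 0.05, edgeR called 0 of 7100 genes (0%), with a smallest adjusted p of 0.487, and DESeq2's Wald test and limma voom also called 0. At an unadjusted p under 0.05, 305 genes (4.3%) passed by edgeR, 182 above 0 (2.56%, the response higher in TAMs) and 123 below 0 (1.73%). DESeq2 found 251 and limma voom 391. The share of 4.3% is no larger than a threshold of 0.05 passes where no gene differs. Genes named below for their interaction are therefore examples, not established differences. The 123 below 0 became 216 without placebo CD8 replicate 1. Without both libraries that stood apart, 488 genes passed the unadjusted threshold, 220 above 0 and 268 below.

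The 2 responses behind the interaction held little that passed the test. In TAMs 1 gene was called (0.0141%), and 451 (6.35%) had an unadjusted p under 0.05, 276 higher with GABA (3.89%) and 175 lower (2.46%). Without GABA TAM replicate 1 the lower ones numbered 304, and with DESeq2's size factors 243 were higher and 219 lower, a smaller excess of higher genes. At the unadjusted threshold DESeq2's Wald test found 369, 196 higher and 173 lower, and limma voom 738, 395 higher and 343 lower. A fit to the TAM libraries alone found 588, 317 higher and 271 lower. For CD8 T cells edgeR called 0 genes (0%, smallest adjusted p 0.351), as did DESeq2 and limma voom, and 337 (4.75%) had an unadjusted p under 0.05 by edgeR, 187 higher (2.63%) and 150 lower (2.11%), against 279 by DESeq2 and 348 by limma voom. The share of 4.75%, too, is no larger than a threshold of 0.05 passes where no gene responds. Without GABA CD8 replicate 1, 246 were lower. With DESeq2's size factors 152 were higher and 175 lower, so the excess of higher genes in CD8 T cells depended on the scaling.

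The mean of both responses gave 1 call (0.0141%), the same gene as in TAMs. This mean is away from 0 for genes that moved the same way, and also for genes that moved in 1 cell type only. An unadjusted p under 0.05 was found for 505 genes (7.11%), 320 higher with GABA (4.51%) and 185 lower (2.61%), and without GABA CD8 replicate 1 the lower ones numbered 297. Higher genes made up 63.4% of the 505, and 51.5% of those found with DESeq2's size factors in place of TMM, so the excess of higher genes depended on the scaling. DESeq2's Wald test called 14 genes for the mean response and limma voom 1.

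The precision of single genes limits what an interaction test could show. The median standard error was 0.36 for a log2 response in TAMs, 0.51 in CD8 T cells and 0.64 for the interaction. The 95% interval of an interaction reached a median of 1.29 to either side of the value over all genes, and 0.60 over the 451 genes with a mean count above 20 in both cell types. For a typical gene, an interaction smaller than these widths was not detectable at this depth.

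Across genes, the responses of the 2 cell types were nearly unrelated at low counts and weakly related at higher ones. Over the 7100 genes Pearson's r was 0.04 and Spearman's rho 0.07, and 3773 genes (53.1%) had responses of the same sign. Over the 451 most abundant genes r was 0.14 and rho 0.29, and 293 (65.0%) shared a sign. Genes are not independent replicates, each response rests on the same 12 libraries for all genes, and counting error lowers such correlations, so these values are a description.

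Both responses had an unadjusted p under 0.05 in 38 genes (0.535%). Of these, 27 had the same sign (0.38%), 17 higher and 10 lower with GABA in both cell types, and 11 had opposite signs (0.155%), 9 of them higher in TAMs and lower in CD8 T cells. Among the 17 is Ifng, which stood at 0 in all placebo TAM libraries and passed the minimum in TAMs only through GABA libraries. With 1 library left out, the genes of the same sign numbered 18 to 38 and those of opposite sign 6 to 16. The 11 became 6 without GABA CD8 replicate 5 or placebo TAM replicate 6, 7 without placebo CD8 replicate 3, placebo CD8 replicate 4, placebo TAM replicate 1 or GABA TAM replicate 6, and 22 without the pair that stood apart. The 17 became 11 without placebo CD8 replicate 1, and the 10 became 19 without GABA CD8 replicate 1. With DESeq2's size factors 11 were higher and 14 lower in both cell types. With log2 molecules as a covariate 14 genes had the same sign and 15 opposite signs, and with the stroma covariate introduced below 38 and 5.

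**Figure D1:**
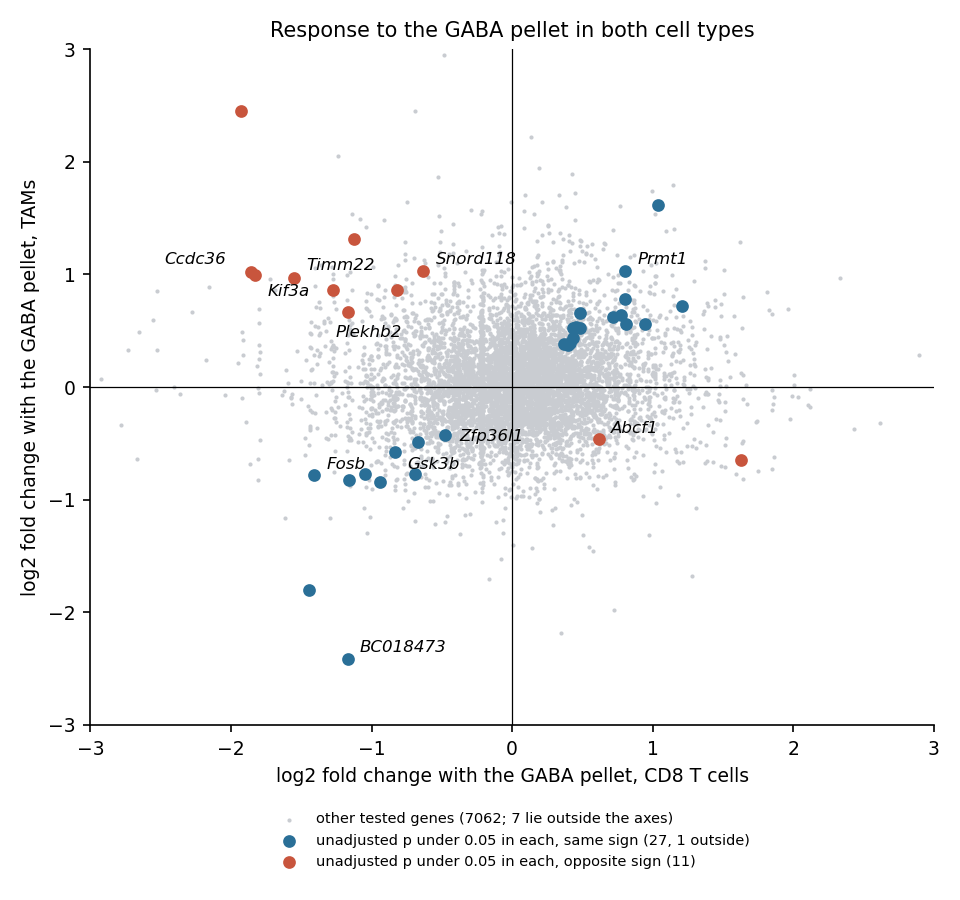
Each point is 1 of 7100 genes, with its log2 fold change between GABA and placebo in CD8 T cells on the horizontal axis and in TAMs on the vertical axis. Blue points are the 27 genes with an unadjusted p under 0.05 in each cell type and the same sign, red points the 11 with opposite signs. BC018473, low in both, is the only gene called, in TAMs and for the mean of both responses.

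The called gene was BC018473, a long noncoding RNA on chromosome 11 (mm10, 116752167 to 116757883) with no established role known here. In TAMs it stood at 16.2, 34.8 and 44.9 molecules per 100000 with placebo (lowest, median and highest library) and at 2.67, 6.18 and 8.61 with GABA. Among CD8 libraries it stood at 19.6, 25.4 and 40.9 with placebo and at 5.80, 7.43 and 38.3 with GABA. All GABA TAM libraries and 5 of the 6 GABA CD8 libraries lay below every placebo library of their cell type, and GABA CD8 replicate 2, at 38.3, lay among the placebo libraries.

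BC018473 fell by 2.41 in TAMs on the log2 scale (SE 0.34, edgeR adjusted p = 6.02e-05). Its value in CD8 T cells was -1.17 (SE 0.38, adjusted p = 0.915), and it was called there in a fit without GABA CD8 replicate 2 (adjusted p = 0.0306, in a range of 0.0306 to 1 over the alternatives). For the mean of both it fell by 1.79 (SE 0.26, adjusted p = 9.02e-05), and over the alternatives this adjusted p ran from 5.26e-08 to 0.00223. The interaction was -1.24 (95% interval -2.27 to -0.20, unadjusted p = 0.0201, not called), so a larger fall in TAMs was not established.

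Next to it among the genes of the same sign stood Fosb and Prmt1, neither called by edgeR. Fosb, an immediate early transcription factor of the AP-1 family, stood at 20.1, 26.7 and 52.9 per 100000 in placebo TAMs (lowest, median and highest) and at 14.5, 19.4 and 21.0 with GABA. CD8 T cells held 3.92, 16.1 and 45.7 with placebo and 3.15, 7.45 and 9.92 with GABA. The GABA libraries lay at the low end of the placebo range or below it in both cell types, with overlap in each. The mean response of Fosb was -1.09 (SE 0.25, edgeR adjusted p = 0.145), from -0.78 in TAMs and -1.41 in CD8 T cells. It passed the test without placebo CD8 replicate 4 (-1.19, adjusted p = 0.0306) or replicate 6 (-1.19, adjusted p = 0.0494), and with DESeq2 (adjusted p = 0.0167), in a range of 0.0167 to 0.433 over its alternatives.

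Prmt1, the main enzyme of asymmetric arginine methylation, stood at 3.21, 4.67 and 6.98 per 100000 in placebo TAMs and at 7.01, 10.8 and 14.5 with GABA. The CD8 values were 5.87, 9.32 and 19.5 with placebo and 14.3, 15.8 and 26.9 with GABA. In TAMs the groups did not overlap, and in CD8 T cells 2 GABA libraries lay above all placebo libraries while the others overlapped the upper placebo values. The mean response was 0.92 (SE 0.21, edgeR adjusted p = 0.145) and the interaction 0.23 (95% interval -0.62 to 1.08). Prmt1 passed without placebo CD8 replicate 2 (1.04, adjusted p = 0.0432) and with DESeq2 (adjusted p = 0.0327), in a range of 0.0327 to 0.422 over its alternatives.

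Several more genes of the same sign were called by DESeq2 and not by edgeR. The kinase Gsk3b, which restrains glycogen synthesis and Wnt signalling, had a mean response of -0.71 (adjusted p = 0.333), and the RNA decay factor Zfp36l1 one of -0.45. Among CD8 libraries Gsk3b stood at 13.7, 15.7 and 18.9 per 100000 with placebo and at 5.80, 7.37 and 12.2 with GABA, without overlap. The ribosomal proteins Rpl30 and Rps15 both had a mean response of 0.50. For Eif5a, a translation elongation factor, TAMs held 57.7, 66.8 and 72.9 per 100000 with placebo and 78.1, 93.4 and 102 with GABA, without overlap, and both responses were 0.43, with an interaction of 0.00 (95% interval -0.51 to 0.51). DESeq2's Wald test called Gsk3b, Zfp36l1, Rpl30, Rps15 and Eif5a for the mean response, with adjusted p values between 0.0334 and 0.0492, and edgeR called none of these. Over the alternatives of these genes adjusted p ran from 0.0334 to 0.816.

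Of the same sign were also Fasn, Npm1 and Bcl2l11, chosen after their values were seen and not called. Fasn, the synthase of fatty acids, had a mean response of 1.33 (adjusted p = 0.159), with 0.687, 1.22 and 1.94 per 100000 in placebo TAMs and 3.29, 4.06 and 6.65 with GABA. Its TAM groups did not overlap, on counts of 1 to 15 molecules a library. Npm1, a nucleolar protein of ribosome assembly, had responses of 0.53 in TAMs and 0.44 in CD8 T cells. Bcl2l11, the pro-apoptotic protein BIM, had -0.77 and -0.69.

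**Figure D2:**
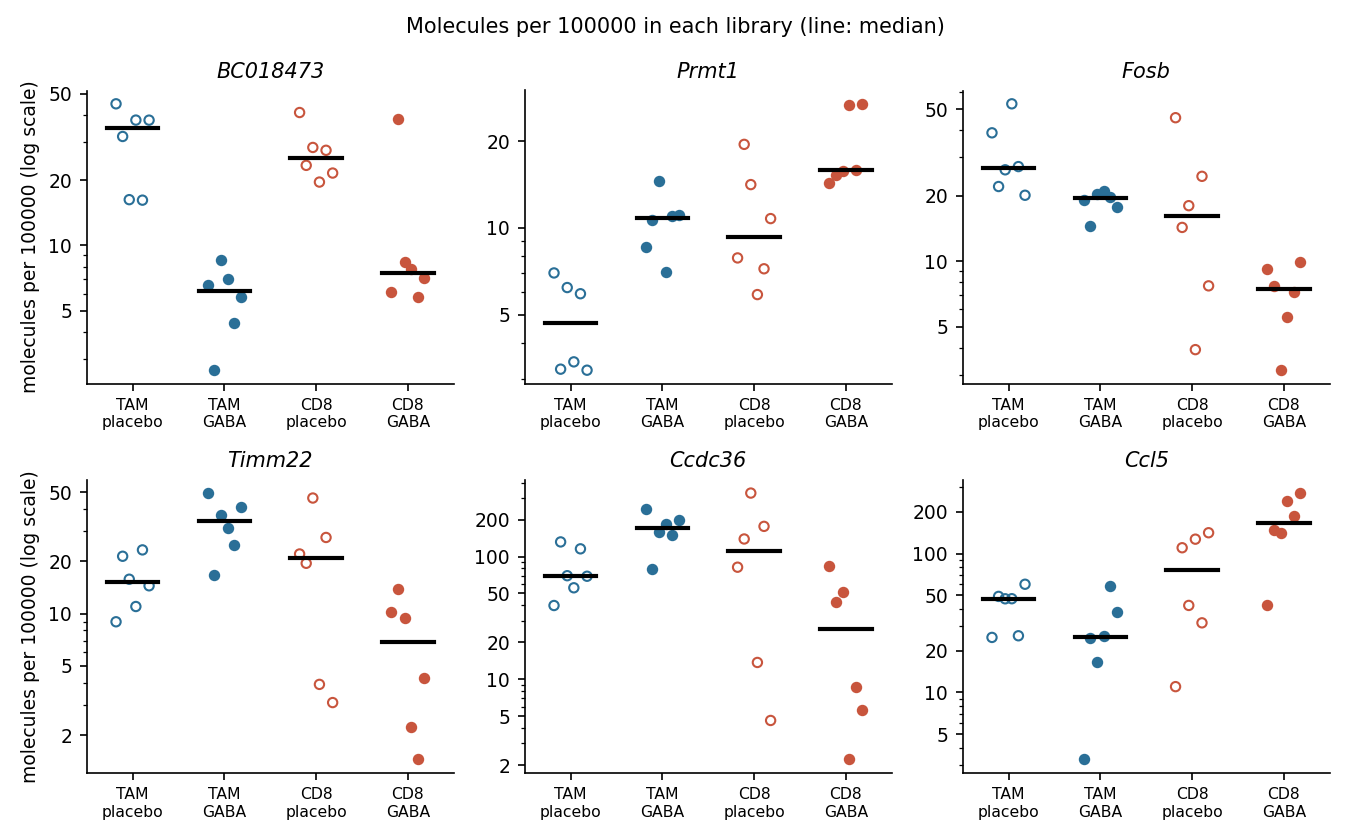
Molecules per 100000 on a log axis in each of the 6 libraries of a group for 6 genes, with open points for placebo, filled points for GABA and lines at the medians. BC018473 is low in all GABA TAM libraries and in 5 of the 6 GABA CD8 libraries, Prmt1 and Fosb have the same sign in both cell types, and Timm22, Ccdc36 and Ccl5 have opposite signs.

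For the interaction, Timm22 had the smallest p. It encodes the core of the translocase that inserts carrier proteins into the inner mitochondrial membrane and lies on chromosome 11 (mm10, 76406925 to 76416313). In TAMs it stood at 8.98, 15.1 and 23.3 per 100000 with placebo and at 16.8, 34.1 and 49.4 with GABA. Among CD8 libraries it stood at 3.08, 20.8 and 46.2 with placebo and at 1.45, 6.85 and 13.8 with GABA. In TAMs 5 of 6 GABA libraries lay above all placebo libraries, whereas in CD8 T cells 2 GABA libraries lay below all placebo libraries and the rest overlapped. The interaction was 2.52 (SE 0.59, 95% interval 1.33 to 3.71, unadjusted p = 7.31e-05, not called), from 0.97 in TAMs and -1.55 in CD8 T cells.

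Ccdc36, a factor of meiotic recombination, and Kif3a, a motor subunit of transport in cilia, had counts too alike to be read as separate genes. Over the 24 libraries they held 3537 and 3566 molecules, with a largest difference of 11 in a library and equal counts in 5, although they lie on chromosomes 9 and 11. Which locus the molecules came from is uncertain, and they are described as 1 signal. The Ccdc36 signal stood at 39.9, 69.4 and 132 per 100000 in placebo TAMs and at 79.6, 172 and 244 with GABA. CD8 T cells held 4.62, 110 and 329 with placebo and 2.22, 25.8 and 83.7 with GABA. The CD8 values spread over a wide range in both groups and overlapped, and 5 of 6 GABA TAM libraries lay above all placebo ones. The interaction was 2.88 for Ccdc36 (95% interval 1.38 to 4.37, unadjusted p = 0.000383) and 2.83 for Kif3a, neither called. Over the alternatives it ran from 0.89 to 3.92 for Ccdc36 (adjusted p 0.00594 to 1), from 0.83 to 3.91 for Kif3a (adjusted p 0.00591 to 1) and from 1.32 to 3.18 for Timm22 (adjusted p 0.0157 to 1). All 3 were called with log2 molecules as a covariate (3.92, 3.91 and 3.18), with the macrophage share of CD8 libraries as a covariate and with no filter beyond a molecule in each cell type.

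These genes varied with stroma and vessel markers among the CD8 libraries. The 15 markers, led by the collagen Col3a1, held 605 molecules in the CD8 libraries, where 13 were detected and Lum and Vwf stood at 0, and 3083 molecules in the TAM libraries, where all 15 were detected. Their share of CD8 molecules was 0.00462%, 0.0961% and 0.194% with placebo (lowest, median and highest) and 0.00850%, 0.0318% and 0.0882% with GABA. In TAMs it was 0.0112%, 0.0811% and 0.268% with placebo and 0.0887%, 0.108% and 0.321% with GABA. The groups overlapped in both cell types.

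Within the groups of CD8 libraries, in a description chosen after the values were seen, Spearman's rho with this share was 0.94 with placebo and 0.77 with GABA for both Ccdc36 and Kif3a, and 0.83 and 0.60 for Timm22, on 6 libraries each. Among TAM libraries it was 0.20 and -0.54 for Ccdc36, and 0.26 and -0.43 for Timm22. With the CD8 share as a covariate, also chosen after the data were seen, the interaction was 0.89 for Ccdc36, 0.83 for Kif3a and 1.32 for Timm22, and the smallest adjusted p over all genes was 0.978. The cells were sorted on CD45, which fibroblasts and vessel cells do not carry, and the part of the stroma markers in these interactions was not tested.

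**Figure D3:**
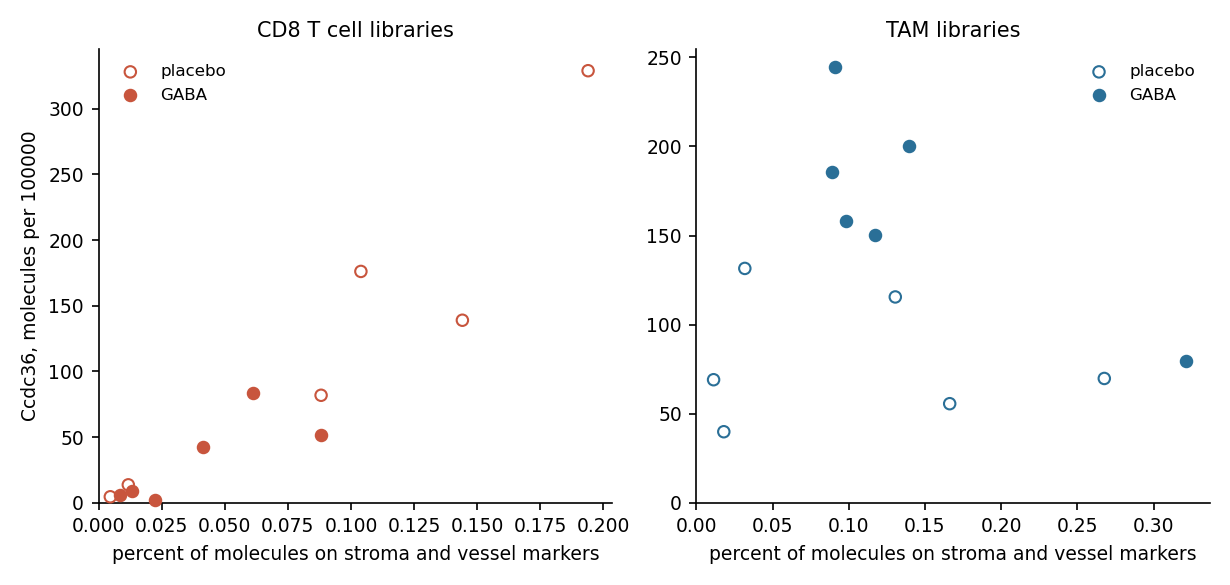
Ccdc36 molecules per 100000 against the percent of molecules on 15 stroma and vessel markers, for the 12 CD8 libraries on the left and the 12 TAM libraries on the right, with open points for placebo and filled points for GABA. Ccdc36 is higher in CD8 libraries with a higher share, in both groups, and TAM libraries show no such order.

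The stromal genes themselves had the largest median interaction of any list with more than 1 tested gene. Of the 7 tested, 3 had an unadjusted p under 0.05 and an interaction above 0 (2.56% of all genes; 1 without placebo CD8 replicate 3), and their median was 1.40, against -0.00 over all 7100 genes. Their median response was 0.30 in TAMs (0.08 without placebo TAM replicate 6 and 0.71 without replicate 5), compared with -1.26 in CD8 T cells. Dcn, a collagen-binding proteoglycan, had an interaction of 3.15 (unadjusted p = 0.00427), Col3a1 one of 1.95 and the matrix protein Sparc one of 1.66, and the list's median ran from 1.13 (without GABA CD8 replicate 4) to 2.11 (without placebo TAM replicate 3). The value of Dcn was 4.83 without GABA CD8 replicate 1, and it was called with log2 molecules as a covariate (5.67, adjusted p = 0.0248, in a range of 0.0248 to 1). With the stroma covariate, which is made of these markers and lowers their values by construction, Dcn had 1.64, Col3a1 0.08 and Sparc 0.59. The list's median interaction was then -0.09. The 12 tumour and epithelial markers included 1 tested gene, the adhesion protein Cdh1, with an interaction of -2.48 (unadjusted p = 0.0124), from -0.62 in TAMs and 1.87 in CD8 T cells. Without GABA CD8 replicate 1, the library with the highest share of these markers in its group, its CD8 response was 0.29 and its interaction -0.92. With the stroma covariate they were 3.56 and -4.17.

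Plekhb2 and Snord118 also had interactions above 0. Plekhb2, a membrane protein of recycling endosomes, stood at 2.41, 3.88 and 5.49 per 100000 in placebo TAMs and at 3.77, 6.22 and 9.87 with GABA. The CD8 values were 7.22, 9.32 and 14.3 with placebo and 2.22, 3.66 and 7.65 with GABA, where 5 of 6 GABA libraries lay below all placebo libraries. The interaction was 1.83 (95% interval 0.86 to 2.81, unadjusted p = 0.000329), and 1.63 to 2.02 over the alternatives. Snord118, the U8 small nucleolar RNA of ribosomal RNA processing, had 1.67 (unadjusted p = 0.000599), from 1.03 in TAMs and -0.63 in CD8 T cells.

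Copb2, a coat subunit of vesicles between Golgi and endoplasmic reticulum, had its larger response on the CD8 side. Among CD8 libraries it stood at 8.66, 13.3 and 21.5 per 100000 with placebo and at 3.15, 5.33 and 8.50 with GABA, without overlap. Its response was -1.24 in CD8 T cells (unadjusted p = 0.000508, not called) and -0.18 in TAMs, with an interaction of 1.06 (95% interval 0.24 to 1.89). Tmed7, a cargo receptor of the same route, had an interaction of 0.84, and Erdr1 one of 1.01. The histone variant H2afz had 0.97 (unadjusted p = 0.00805), from 0.62 in TAMs and -0.35 in CD8 T cells. Hist1h2ap had 1.37 (0.81 with the stroma covariate), but its counts differed by at most 11 molecules a library from those of its neighbour Hist1h2ao, so its identity is uncertain.

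On the other side, with a response lower in TAMs, the smallest p belonged to Chd8, a chromatin remodeller. CD8 T cells held 1.28, 3.91 and 6.30 per 100000 with placebo and 6.67, 10.3 and 12.2 with GABA, and TAMs 4.73, 8.42 and 13.7 with placebo and 3.29, 5.96 and 8.61 with GABA. The CD8 groups did not overlap, on counts that are low, and the TAM groups did. The interaction was -1.82 (95% interval -2.84 to -0.80, unadjusted p = 0.000553, not called), from -0.49 in TAMs and 1.33 in CD8 T cells, and it ran from -2.10 to -1.61 over the alternatives.

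Ccl5, a chemokine that draws T cells and monocytes and is made by effector T cells, stood at 24.9, 47.4 and 60.2 per 100000 in placebo TAMs and at 3.29, 25.1 and 58.6 with GABA. The CD8 values were 11, 76.4 and 142 with placebo and 42.9, 167 and 273 with GABA. Above all placebo CD8 libraries lay 5 of 6 GABA CD8 libraries, and below all placebo TAM libraries lay 3 of 6 GABA TAM libraries. The interaction was -1.88 (95% interval -3.04 to -0.71, unadjusted p = 0.00238, not called), from -0.66 in TAMs and 1.21 in CD8 T cells. Without the pair of libraries that stood apart it was -1.43, and with libraries of the same treatment and number as a block it was called (-2.25, adjusted p = 0.00612, in a range of 0.00612 to 1 for all settings).

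The rest of the genes with a lower response in TAMs were of several kinds. Abcf1 and Eif5, which take part in the start of translation, had interactions of -1.08 (95% interval -1.76 to -0.40) and -1.04 (95% interval -1.71 to -0.37), each with a response below 0 in TAMs and above 0 in CD8 T cells. Prdx3, a mitochondrial peroxidase, had -1.33, Bdp1, a subunit of the initiation factor of RNA polymerase III, -1.19, and Pitpna, a phosphatidylinositol carrier, -1.09. Ppp4r3b, a regulatory subunit of a phosphatase, had -1.08, and Lrrfip1 had -0.90. The integrin-linked cytoskeletal protein Tln1 had -0.64 on a narrow spread, with 45.4, 46.6 and 53.5 per 100000 in placebo TAMs and 29.7, 37.6 and 45.3 with GABA. Its TAM groups did not overlap, and its TAM response was -0.41.

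Cytosolic ribosomal proteins, the protein part of the ribosome, had the largest share with the same sign in both cell types, 95.2% against 53.1% over all genes. This holds among the gene lists with more than 2 tested genes. Over the 451 genes with a mean count above 20 in both cell types the share was 65.0%. Of 87 in the list, 83 were tested. They made up 6.54%, 7.83% and 9.15% of molecules in placebo TAMs and 8.91%, 9.87% and 11.2% with GABA, and 13.1%, 16.4% and 17.6% in placebo CD8 T cells and 13.6%, 18.2% and 21.1% with GABA. In TAMs 5 of 6 GABA libraries lay above all placebo libraries, and in CD8 T cells 3 did. The median response was 0.31 in TAMs, compared with 0.21 in CD8 T cells, against 0.03 over all genes in each, and 78 of the 83 had a response above 0 in both.

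No ribosomal protein gene was called, and the counts at an unadjusted p under 0.05 rested on single libraries. In TAMs 26 were higher and 0 lower (3.89% and 2.46% of all genes were), but 14 were higher without placebo TAM replicate 4 and 15 without GABA TAM replicate 2 or replicate 6. Of the CD8 responses 15 were higher and 1 lower (2.63% and 2.11% of all genes), with 9 higher without placebo CD8 replicate 3 or replicate 5, and 24, 4 and 6 higher without GABA CD8 replicates 1, 4 and 6. For the mean response 41 were higher and 1 lower (4.51% and 2.61% of all genes), and 24 were higher without GABA CD8 replicate 4. The median kept its sign with any library left out, at 0.27 to 0.36 in TAMs and 0.17 to 0.24 in CD8 T cells, and under each scaling.

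The interaction of the ribosomal proteins had a median of 0.09, with 1 gene above 0 and 0 below at an unadjusted p under 0.05 (2.56% and 1.73% of all genes). With 1 library left out the median ran from 0.05 (without GABA CD8 replicate 1) to 0.17 (without GABA CD8 replicate 6). Without the pair of libraries that stood apart it was 0.19, with 9 above and 1 below (220 and 268 of all 7100 genes), and without GABA TAM replicate 1 alone 4 were above and 1 below (199 and 170 of all genes). The laminin receptor and ribosomal protein Rpsa was the 1 gene, at 0.49 (95% interval 0.03 to 0.95, and 0.29 with log2 molecules as a covariate), from 0.40 in TAMs and -0.09 in CD8 T cells. Rps26 was the gene lower in CD8 T cells, at -0.46 there and -0.08 in TAMs. Rplp1, the most abundant of the list, had a mean response of 0.31. Many ribosomal protein genes have processed pseudogenes of near-identical sequence, so values of single members are uncertain.

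Mitochondrial ribosomal proteins, which translate the proteins encoded in mitochondrial DNA, had medians of 0.19 in TAMs (0.31 without placebo TAM replicate 5) and 0.27 in CD8 T cells over 77 genes. Their share was 0.247%, 0.289% and 0.334% of molecules in placebo TAMs and 0.331%, 0.354% and 0.383% with GABA. Among CD8 libraries it was 0.326%, 0.388% and 0.420% with placebo and 0.390%, 0.466% and 0.491% with GABA. Above all placebo libraries lay 5 of 6 GABA TAM libraries and 4 of 6 GABA CD8 libraries. The median interaction was -0.07, and 0.02 without placebo TAM replicate 5, with 3 genes above 0, among them Mrpl38 (1.51) and Mrps35 (2.06), and 1 below (2.56% and 1.73% of all genes). Without placebo TAM replicate 2 there were 5 above, and without placebo CD8 replicate 5 there were 3 below.

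Subunits of oxidative phosphorylation (OXPHOS), the respiratory chain and ATP synthase, had medians of 0.23 in TAMs and 0.16 in CD8 T cells over 79 genes, of which 55 were above 0 in both and 2 below 0 in both. Their share was 0.952%, 1.26% and 1.31% in placebo TAMs and 1.07%, 1.57% and 1.64% with GABA, and 1.18%, 1.68% and 1.83% in placebo CD8 T cells and 1.39%, 1.78% and 2.15% with GABA. Above all placebo libraries lay 5 of 6 GABA TAM libraries and 3 of 6 GABA CD8 libraries. The median interaction was 0.09, and 0 genes had an unadjusted p under 0.05 for it by edgeR in either direction (2.56% above 0 and 1.73% below of all genes). Without the pair of libraries that stood apart the median was 0.19, with 5 above and 1 below (220 and 268 of all 7100 genes), and it was 0.03 without placebo CD8 replicate 2.

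The OXPHOS counts were small and moved with single libraries. At an unadjusted p under 0.05, 6 genes were higher in TAMs and 0 lower (3.89% and 2.46% of all genes), and 17 were higher without GABA TAM replicate 1. The count was 3 without placebo TAM replicate 1, and 2 without placebo TAM replicate 4 or GABA TAM replicate 4 or 6. On the CD8 side 5 were higher (2.63% of all genes), and 3 without GABA CD8 replicate 4, where the list's median was 0.05. For the mean response 11 were higher (4.51% of all genes), 4 without GABA CD8 replicate 4 and 7 without placebo TAM replicate 2.

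Of the subunits the study names, Ndufb2 of complex I had 0.56 in both cell types, an interaction of -0.00 (95% interval -0.81 to 0.80) and a mean response of 0.56 (unadjusted p = 0.00652, not called). The ATP synthase subunits Atp5d and Atp5g2 had 0.65 and 0.58 in TAMs and 0.12 each in CD8 T cells, with interactions of 0.52 (95% interval -0.33 to 1.38) and 0.46 (95% interval -0.12 to 1.04). A difference between the cell types was therefore not shown for these. Cox5a, a subunit of complex IV, was larger on the CD8 side, with 0.62 there (unadjusted p = 0.00546), 0.11 in TAMs and an interaction of -0.51.

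Lists of translation and RNA processing had medians of the same sign in both cell types. The 43 core spliceosome genes had medians of 0.29 in TAMs against 0.21 in CD8 T cells, with 24 above 0 in both and 3 below. That is 62.8% of the same sign, against 53.1% over all genes and 65.0% over those with a mean count above 20 in both. Their median interaction was 0.02 (-0.08 without placebo TAM replicate 6), and the CD8 median was 0.13 without GABA CD8 replicate 1. For the mean response 5 were higher at an unadjusted p under 0.05 (4.51% of all genes), and 1 to 6 with 1 library left out, the 1 without placebo CD8 replicate 5. The 47 translation factors had medians of 0.15 and 0.16 and an interaction of 0.00, with 1 gene above 0 and 3 below (2.56% and 1.73% of all genes; 1 below without placebo CD8 replicate 6), among them Eif5 and Eif3j1 (-0.92). Their CD8 median was 0.07 without GABA CD8 replicate 4, and their share of CD8 molecules had a mean of 3.20% with placebo and 3.10% with GABA, opposite in direction to the median. Proteasome subunits, which degrade tagged proteins, had medians of 0.11 and 0.12 over 42 genes (0.01 in CD8 T cells without GABA CD8 replicate 1), and Psmd14 had an interaction of 0.88.

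Targets of ATF4, the transcription factor of amino acid shortage, had medians of 0.29 in TAMs and 0.21 in CD8 T cells (0.11 without placebo CD8 replicate 4) over 29 genes. In TAMs 7 were higher at an unadjusted p under 0.05 and 0 lower (3.89% and 2.46% of all genes). On the CD8 side edgeR found 0 such genes in either direction (2.63% higher and 2.11% lower of all genes). The interaction had a median of 0.16, and 0.04 without placebo CD8 replicate 3. For it 2 genes were above 0 and 0 below (2.56% and 1.73% of all genes), and 4 above without GABA CD8 replicate 1. Aars, the alanyl-tRNA synthetase, stood at 1.99, 6.32 and 8.28 per 100000 in placebo TAMs and at 8.56, 10.7 and 12 with GABA, without overlap. Its response was 0.87 in TAMs against -0.48 in CD8 T cells, with an interaction of 1.35 (unadjusted p = 0.0158). Psph, the last enzyme of serine synthesis, had 1.53 and 0.15, with an interaction of 1.38 (95% interval -0.07 to 2.83). Aars and Psph are the 2 genes counted above 0, although the interval of Psph takes in 0.

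Cell cycle lists had medians above 0 in TAMs and nearer 0 in CD8 T cells, where they moved with single libraries. The 59 mitosis genes had medians of 0.26 in TAMs (0.48 without placebo TAM replicate 5) and -0.02 in CD8 T cells, and a median interaction of 0.39 against -0.00 over all genes, with 42 of 59 above 0, 2 above at an unadjusted p under 0.05 (2.56% of all genes were) and 0 below. With 1 library left out this median ran from 0.14 (without placebo CD8 replicate 5) to 0.54 (without placebo TAM replicate 5). The CD8 median was 0.24 without placebo CD8 replicate 5, near the one in TAMs. The mitotic kinase Aurkb had an interaction of 1.67 (unadjusted p = 0.0368) on few molecules. The 49 DNA replication genes had medians of 0.22 and 0.09 (0.14 in TAMs without placebo TAM replicate 4 and -0.13 in CD8 T cells without GABA CD8 replicate 1). Their interaction was 0.22, and 0.03 without placebo CD8 replicate 3, with 1 gene above 0 and 0 below (2.56% and 1.73% of all genes). Pcna, the sliding clamp of replication, had 0.24 and 0.02.

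Genes induced by TNF and NF-kB, the inflammatory cytokine and the transcription factor it activates, had medians below 0 in both cell types. Over 59 genes the median was -0.29 in TAMs against -0.15 in CD8 T cells, with 35 below 0 in both and 6 above 0 in both. Their share of molecules was 1.10%, 1.34% and 1.44% in placebo TAMs and 0.884%, 1.04% and 1.28% with GABA. Among CD8 libraries it was 1.08%, 1.46% and 1.89% with placebo and 1.03%, 1.30% and 1.80% with GABA. In TAMs 4 of 6 GABA libraries lay below all placebo libraries, and in CD8 T cells the groups overlapped over most of their range.

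At an unadjusted p under 0.05, 7 of these genes were lower in TAMs and 1 higher (2.46% and 3.89% of all genes), with 13 lower without GABA TAM replicate 1 and 4 without GABA TAM replicate 3. Of the CD8 responses 2 were lower and 0 higher (2.11% and 2.63% of all genes), with 11 lower without GABA CD8 replicate 1 and 1 without placebo CD8 replicate 1 or 5, and the median there was -0.03 without placebo CD8 replicate 1 and -0.33 without GABA CD8 replicate 1. For the mean response 11 were lower and 1 higher (2.61% and 4.51% of all genes). Lower ones numbered 7 without placebo CD8 replicate 1 and 18 without GABA CD8 replicate 1. Over all genes, too, more were lower in TAMs without GABA TAM replicate 1. The same held for the CD8 and mean responses without GABA CD8 replicate 1, by the counts given above. The median interaction was -0.05, with 1 gene on each side (2.56% and 1.73% of all genes), and 0.14 without GABA CD8 replicate 1. Without placebo CD8 replicate 1 it was -0.13 with 5 below (216 of all 7100 genes), and without the pair that stood apart -0.20 with 2 above and 6 below (220 and 268 of all genes). In that last fit the 24 macrophage markers tested had a CD8 median of 0.71, where the full data gave -0.02, and an interaction of -0.87 with 7 below, and their part in this change was not tested. In the full data the 2 genes were the chemokine Cxcl10, at 1.37 (0.02 in TAMs and -1.35 in CD8 T cells), and the stress-induced gene Gadd45b, at -1.01 (-0.99 in TAMs and 0.02 in CD8 T cells).

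The single genes of this pathway that the study names were uneven. Il1b, the precursor of interleukin-1 beta, had -0.66 in TAMs against -0.96 in CD8 T cells, with a mean response of -0.81 (unadjusted p = 0.0337) that was -0.19 without placebo CD8 replicate 1. Thbs1, a secreted inhibitor of blood vessel growth, had -1.29 in TAMs (unadjusted p = 0.00606) and -1.03 in CD8 T cells, with a mean response of -1.16 (edgeR adjusted p = 0.478) and an interaction of -0.26 (95% interval -1.85 to 1.34), and its mean response was -0.52 without placebo CD8 replicate 1. Per 100000, Thbs1 stood at 36.3, 53.1 and 135 in placebo TAMs and at 13.4, 27.2 and 50 with GABA. Of these GABA libraries, 4 lay below all placebo ones. Mean counts were 203 in TAMs and 30.8 in CD8 libraries for Il1b, and 79.1 and 10.8 for Thbs1. Placebo CD8 replicate 1 held 0.809% of its molecules on macrophage markers, where the others of its group held 0.121% to 0.320%. The part of macrophage RNA in the CD8 values of both genes was not tested. Tnf itself had -0.31 and -0.05, and its mean response of -0.18 was 0.31 without placebo CD8 replicate 3. The receptor Tnfrsf1b had -0.54 in TAMs against 0.00 in CD8 T cells, with an interaction of -0.54 (95% interval -1.26 to 0.19) that was -0.31 without GABA CD8 replicate 4.

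Immediate early genes, which cells induce within minutes of a stimulus, also had medians below 0, at -0.31 in TAMs and -0.18 in CD8 T cells over 38 genes, with 20 below 0 in both and 4 above. Their share was 0.989%, 1.15% and 1.43% in placebo TAMs and 0.900%, 0.969% and 1.09% with GABA, where 4 GABA libraries lay below all placebo ones. Among CD8 libraries it was 0.681%, 0.886% and 1.45% with placebo and 0.761%, 0.841% and 0.968% with GABA, with 0 GABA libraries below all placebo ones. The CD8 median was 0.01 without placebo CD8 replicate 1, -0.0042 without the pair that stood apart and -0.27 without GABA CD8 replicate 1. Without placebo CD8 replicate 1 it thus lay near 0. In the first of these fits the macrophage markers had a CD8 median of 0.72 and an interaction of -0.77. In the full data those were -0.02 and -0.13, and the part of the markers was not tested. In TAMs 4 genes were lower at an unadjusted p under 0.05 (2.46% of all genes). Without placebo TAM replicate 4 there were 2, and without GABA TAM replicate 1 there were 7. In the last of these fits more were lower over all genes too. Of the CD8 responses 4 were lower and 2 higher (2.11% and 2.63% of all genes). The median interaction was -0.12, with 1 gene above 0 and 0 below (2.56% and 1.73% of all genes), and 0.01 without GABA CD8 replicate 1. Without placebo CD8 replicate 1 it was -0.31 with 5 below (216 of all 7100 genes). Without the pair that stood apart it was -0.31 with 4 below (268 of all genes). Fos, the partner of Jun in AP-1, had -0.46 and -0.50. Egr1, a zinc finger factor induced by growth signals, had 0.06 in TAMs against -0.92 in CD8 T cells, with an interaction of 0.99 (95% interval 0.03 to 1.94) that was 0.48 with the stroma covariate.

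**Figure D4:**
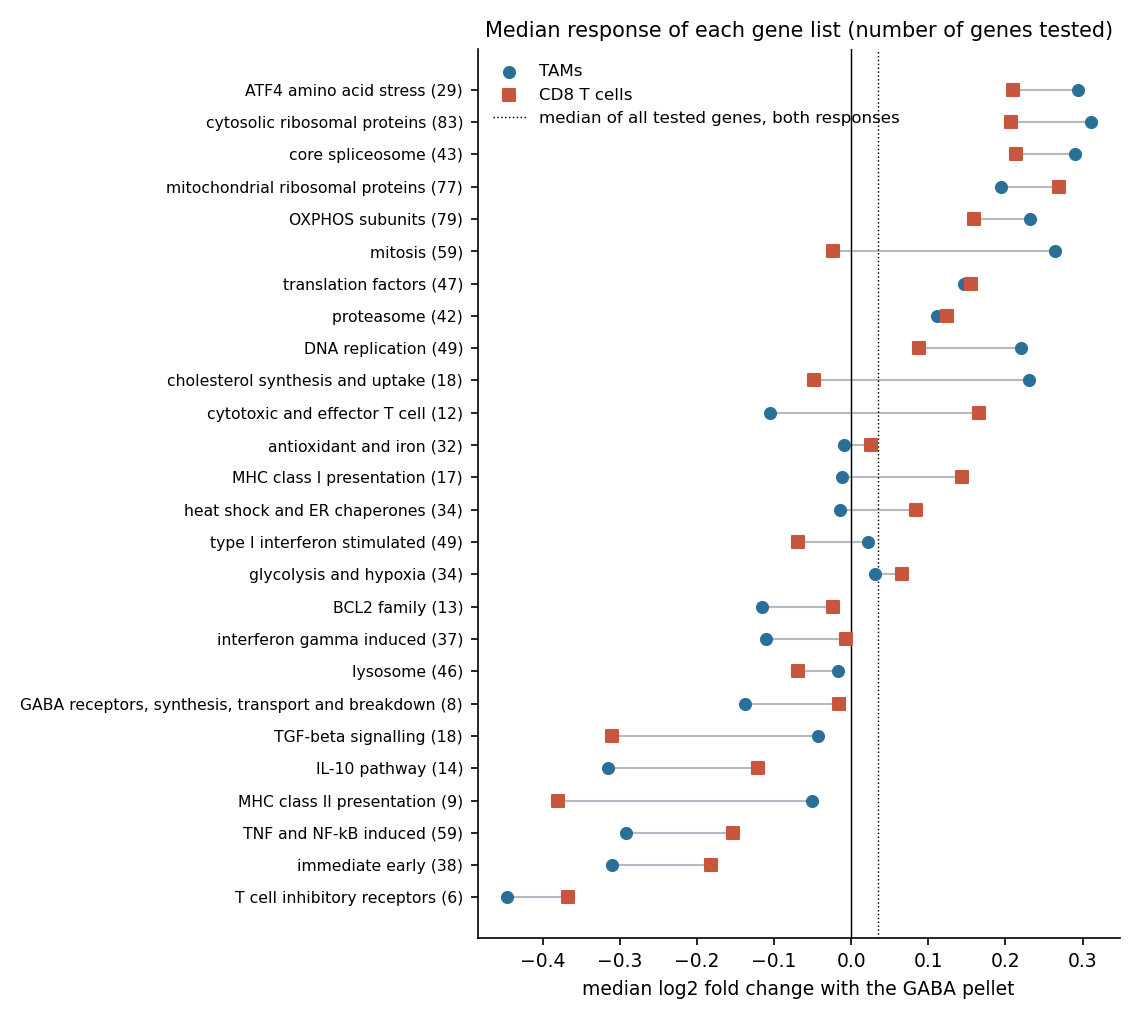
Median log2 fold change between GABA and placebo of each gene list in TAMs (blue circles) and CD8 T cells (red squares), with the number of genes tested in brackets and a dotted line at the median of all tested genes, 0.03. Ribosomal, OXPHOS, spliceosome and ATF4 lists lie above 0 in both cell types, and the lists of TNF-induced and immediate early genes lie below 0 in both. In CD8 T cells the median of the immediate early list lay near 0 without placebo CD8 replicate 1.

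Interferon genes had small medians, and those of MHC class II genes rested on single libraries. Type I interferon-stimulated genes had medians of 0.02 in TAMs and -0.07 in CD8 T cells over 49 genes, and interferon gamma-induced genes -0.11 and -0.01 over 37. Iigp1, a GTPase of defence against intracellular parasites, had an interaction of 1.16 (unadjusted p = 0.0164, and 0.71 with the stroma covariate), from -0.05 in TAMs and -1.21 in CD8 T cells. MHC class I genes had medians of -0.01 and 0.14 over 17 genes and an interaction of -0.17 with 3 of 17 above 0 (0.05 in CD8 T cells and -0.08 for the interaction without GABA CD8 replicate 1), and MHC class II genes -0.05 and -0.38 over 9 genes, with 0.18. Of class II the CD8 median was 0.08 and the interaction -0.48 without placebo CD8 replicate 1, against -0.79 and 0.51 without GABA CD8 replicate 1, and without the pair that stood apart the interaction was -0.35. The macrophage markers had a CD8 median of 0.72 and an interaction of -0.77 without placebo CD8 replicate 1, against -0.02 and -0.13 in the full data, and their part was not tested. The CD8 median of the interferon gamma-induced genes was 0.12 without placebo CD8 replicate 1.

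The receptor chain Ifngr1, through which cells sense interferon gamma, stood at 15.8, 16.2 and 20.9 per 100000 in placebo TAMs and at 9.68, 12 and 14.5 with GABA, without overlap. Its CD8 groups overlapped, at 25.2, 33.3 and 80.0 with placebo and 19.4, 43.1 and 60.9 with GABA. The response was -0.59 in TAMs against 0.10 in CD8 T cells, with an interaction of -0.69 (95% interval -1.37 to -0.01, unadjusted p = 0.0456, not called).

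Cytotoxic and effector genes are made by T cells, and only 12 of 28 could be compared. Their medians were -0.10 in TAMs and 0.17 in CD8 T cells, and the interaction -0.28, with 2 genes above 0 and 1 below (2.56% and 1.73% of all genes). The CD8 median was 0.01 without placebo CD8 replicate 1 and -0.01 without the pair that stood apart, the TAM median -0.28 without GABA TAM replicate 6 and -0.04 without replicate 3, and the interaction -0.42 without placebo CD8 replicate 6 and -0.08 without GABA CD8 replicate 4. Ifng, the gene of interferon gamma, stood at 167, 347 and 633 per 100000 in placebo CD8 T cells and at 329, 703 and 1211 with GABA. Above all placebo libraries lay 4 of 6 GABA libraries, and the response was 1.03 (unadjusted p = 0.00987, not called). In TAMs Ifng stood at 0 in all placebo libraries and in 4 GABA libraries, with 16 molecules in GABA TAM replicate 1 and 2 in replicate 6, so no fold change is given. Nkg7, a granule protein of killer cells, also stood at 0 in all placebo TAM libraries, and these are the 2 genes counted above 0. Both passed the minimum in TAMs only through GABA libraries, so this count is not read as a response. With both at their lower bound, against a floor of 3 counts over the placebo group, the medians stayed at -0.10 in TAMs and -0.28 for the interaction. A median cannot change while these 2 genes stay above it, so the bound is no check of the medians. Gzmb, a granzyme that starts apoptosis in target cells, had 0.32 in CD8 T cells (0.14 with the stroma covariate) and stood at 0 in 4 of 6 libraries of each TAM group. Prf1 was below the minimum count in TAMs.

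Of the genes that sense, make, move or break down GABA, 8 of 39 passed the minimum in both cell types. By edgeR 0 had an unadjusted p under 0.05 for the interaction, the TAM response, the CD8 response or their mean. Of all genes 4.3%, 6.35%, 4.75% and 7.11% did. Their medians were -0.14 in TAMs, -0.02 in CD8 T cells and 0.05 for the interaction, the last -0.08 without placebo TAM replicate 5 and 0.21 without replicate 4. The TAM median was -0.21 without placebo TAM replicate 5 and -0.05 without replicate 6. For CD8 T cells it was -0.14 without GABA CD8 replicate 1 and 0.09 with the stroma covariate, where the interaction was -0.05. The smallest interaction p was that of Gabarapl2, which takes part in autophagy and vesicle transport, at 0.51 (95% interval -0.65 to 1.66), and 0.29 without GABA CD8 replicate 4. The synthesis enzyme Gad1 and the breakdown enzyme Abat were not tested, with mean counts in TAMs of 0 and 0.0833.

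IL-10 pathway genes had medians of -0.31 in TAMs and -0.12 in CD8 T cells over 14 genes. At an unadjusted p under 0.05, 3 were lower in TAMs (2.46% of all genes, and 2 without placebo TAM replicate 1 or GABA TAM replicate 1, 2 or 6). For the interaction edgeR found 0 at this threshold (4.3% of all genes). Without placebo CD8 replicate 1 the CD8 median was 0.09, so its sign rested on that library, and the median interaction was -0.37 in place of -0.15. In that fit the macrophage markers had a CD8 median of 0.72 and an interaction of -0.77. In the full data those were -0.02 and -0.13, and the part of the markers was not tested. The CD8 median of the IL-10 list was -0.23 without placebo CD8 replicate 5, and its interaction -0.07 without GABA TAM replicate 3. Il10, the cytokine itself, was below the minimum in TAMs, with a mean count of 0.333. Of 15 genes on the T cell inhibitory receptor list, 6 passed the minimum in both cell types. Their medians were -0.45 in TAMs and -0.37 in CD8 T cells (-0.22 there without GABA CD8 replicate 3). The 6 include the cytokine receptor chain Il10ra, the transcription factor Nr4a1 and Entpd1, the ATP-degrading enzyme CD39. These medians therefore do not stand for inhibitory receptors alone. Entpd1 stood at 12.3, 24 and 74 per 100000 in placebo CD8 T cells and at 7.25, 12.9 and 19.9 with GABA. For Entpd1, 3 GABA libraries there lay below all placebo ones. Its mean response was -0.81 (unadjusted p = 0.000481, not called by edgeR, called by DESeq2 with adjusted p = 0.0419 in a range of 0.0419 to 0.679).

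The TGF-beta list had medians of -0.04 in TAMs and -0.31 in CD8 T cells over 18 genes and an interaction of 0.20, with 3 genes above 0 and 0 below (2.56% and 1.73% of all genes; 1 above without placebo CD8 replicate 1, placebo CD8 replicate 2 or GABA CD8 replicate 2). This interaction was 0.05 without placebo CD8 replicate 5 and 0.47 without GABA CD8 replicate 1. Without the pair that stood apart it was 0.07, with 1 above and 2 below. Over all genes, too, those below 0 outnumbered those above in that fit. The CD8 median was -0.52 without GABA CD8 replicate 6 and -0.10 without replicate 4. The growth factor Tgfb3 had the largest of the 3 interactions, 3.38 (unadjusted p = 0.00284, 2.23 without placebo CD8 replicate 2, and called with log2 molecules as a covariate at 6.54, adjusted p = 0.0164 in a range of 0.0164 to 1), and the signal transducer Smad4 had 1.09 (0.73 without the pair that stood apart). With the stroma covariate Tgfb3 had 2 in place of 3.38. Of the CD8 responses 4 were lower at an unadjusted p under 0.05 (2.11% of all genes), and 2 without placebo CD8 replicate 1. Tgfb3 is also expressed by stromal cells, and their part in its value was not tested.

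The remaining lists are given for completeness. Glycolysis and hypoxia genes had 0.03 in TAMs and 0.07 in CD8 T cells over 34 genes. At an unadjusted p under 0.05, 1 had an interaction above 0 and 0 below (2.56% and 1.73% of all genes). It was the glucose transporter Slc2a3. Its value of 3.44 rested on GABA TAM replicate 1, which held 40 molecules, and was 0.35 without it. With log2 molecules as a covariate it was called (8.44, adjusted p = 0.000234, in a range of 0.000234 to 1). Heat shock genes had medians of -0.01 and 0.08 over 34 genes, and the co-chaperone Dnajb1 had an interaction of 1.27 (unadjusted p = 0.0159), from 0.25 in TAMs and -1.02 in CD8 T cells. Cholesterol genes had 0.23 and -0.05 over 18 genes with an interaction of 0.22, and without GABA CD8 replicate 1 their CD8 median was -0.41 and the interaction 0.48. Their TAM median was 0.06 without placebo TAM replicate 2 and 0.39 without placebo TAM replicate 4. Their interaction was 0.12 in the first of these fits and 0.07 with the stroma covariate, where the CD8 median was 0.11. Medians of BCL2 family genes were -0.12 and -0.02 over 13. Antioxidant and iron genes had -0.01 and 0.03 over 32 genes, and lysosome genes -0.02 and -0.07 over 46. Without placebo CD8 replicate 1 the CD8 medians of these 2 lists were 0.32 and 0.12, and without GABA CD8 replicate 1 they were -0.14 and -0.37. The macrophage markers had a CD8 median of 0.72 in the first of these fits and -0.02 in the full data, and their part was not tested.

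Nuclear RNA was lower with GABA in TAMs in the share test given above, without passing it. Malat1, a long noncoding RNA kept in nuclear speckles, stood at 432, 544 and 999 per 100000 in placebo TAMs and at 326, 363 and 498 with GABA, with 5 of 6 GABA libraries below all placebo ones. Neat1, the scaffold of paraspeckles, stood at 23.9, 29.5 and 40.5 with placebo and at 17.0, 18.4 and 21.0 with GABA, without overlap. The responses were -0.68 and -0.73 in TAMs and -0.19 and -0.18 in CD8 T cells, with interactions of -0.49 (95% interval -1.12 to 0.14) and -0.55 (95% interval -1.30 to 0.21). Placebo TAM replicate 4 held 1.05% of its molecules on the list, where the other placebo TAM libraries held 0.469% to 0.606%, and without it the list's median was -0.46 in TAMs and -0.27 for the interaction, in place of -0.68 and -0.49. The difference in the list's share lay opposite in direction to that of the ribosomal share in TAMs, and its part in that difference was not tested.

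Lrrc17, a secreted leucine-rich repeat protein, is a gene the study names, and it was not called by edgeR in TAMs. It stood at 69.4, 128 and 250 per 100000 in placebo TAMs and at 234, 472 and 614 with GABA, where 4 GABA libraries lay above all placebo ones. The TAM response was 1.56 (edgeR adjusted p = 0.431) and the CD8 response 0.09, with an interaction of 1.48 (95% interval 0.25 to 2.70, unadjusted p = 0.0195). This interaction was 0.86 with the stroma covariate and 2.44 without GABA CD8 replicate 1, and it was called with log2 molecules as a covariate (2.21, adjusted p = 0.0492, in a range of 0.0492 to 1 over its alternatives). In a fit to the TAM libraries alone the response was called (1.55, adjusted p = 0.0130, in a range of 0.0130 to 0.938 over the alternatives).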

How the data were processed

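RNA of 36 libraries, each from 100 sorted cells, was sequenced with molecular barcodes, and 24 libraries are compared here. The authors mapped the reads with STAR to mm10 and deposited counts, the number of distinct molecules per gene, without normalization. Depth was 51064 to 262606 molecules per library. Immunoglobulin constant genes are not reported here. All 7100 genes with a mean count above 1 over the 12 libraries of each cell type were fitted together with edgeR 4.0.16 in R 4.3.3 (TMM, 1 coefficient per group, quasi-likelihood F-test), with Benjamini-Hochberg adjusted p under 0.05 as the call. Contrasts were the interaction, each response and their mean. Standard errors and 95% intervals come from the same fit, and intervals cover the spread of these libraries only. They are Wald intervals, whereas p comes from the F-test, so the 2 can disagree near the threshold. Depth and marker shares were compared with two-sided exact permutation tests in Python 3.11.15 with numpy 2.4.6, scipy 1.17.1 and pandas 2.3.3, and figures drawn with matplotlib 3.10.9. The procedure was tested on simulated data.

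Genes were named by rule: up to 10 on each side of the interaction with the smallest p (called genes before uncalled ones with a mean count of at least 5 in both cell types), up to 8 with an unadjusted p under 0.05 in each cell type for either combination of signs, called genes of the other contrasts, for each gene list the 2 with the smallest interaction p and the 2 most abundant, and genes the study names. Members and lists were chosen with earlier results of these data known. Counts of 2 genes were called near-identical when their absolute differences, summed over libraries, were under 0.1 of the molecules, a threshold chosen after seeing the data. Coordinates are from RefSeq on mm10, in which all 177 named genes were found.

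Alternatives were DESeq2 1.42.0 size factors, TMM within each cell type, DESeq2's Wald test, limma 3.58.1 voom with sample weights, a robust fit, other filters (mean above 5, filterByExpr, none beyond a molecule in each cell type), all 36 libraries, a fit per cell type, blocks for the replicate number, covariates for log2 molecules and for the macrophage marker share of CD8 libraries, and leaving out each library. Leaving out the pair of libraries that stood apart and a covariate for the stroma marker share of CD8 libraries were chosen after seeing the data.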

Additional observations from a re-analysis of the deposited data

Results flagged for a closer look

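Of 88 sets of 6 libraries examined (marker and list shares, correlations and named genes), 10 held a library far from the others, where chance alone gives about 1 in 20. In placebo CD8 replicate 1, macrophage markers took 0.809% of molecules (others 0.121% to 0.320%), neutrophil markers 0.0315% (others 0.00154% to 0.0104%) and OXPHOS subunits 1.18% (others 1.60% to 1.83%). In GABA CD8 replicate 2, NK cell markers took 0.0199% (others 0.00816% to 0.0122%) and BC018473 stood at 38.3 molecules per 100000 (others 5.80 to 8.40). In GABA CD8 replicate 1, tumour and epithelial markers took 0.0184% (others 0.00290% to 0.00850%).

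Among TAM libraries, NK cell markers took 0.00197% in placebo replicate 5 (others 0% to 0.000648%), and nuclear RNA took 1.05% in placebo replicate 4 (others 0.469% to 0.606%). In GABA replicate 1 the median correlation with the group was 0.842 (others 0.906 to 0.923). Stroma and vessel markers took 0.321% in GABA replicate 2 (others 0.0887% to 0.139%). What set these libraries apart was not tested.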

How the results depend on the processing

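For the interaction, the count of 0 became 3 with no filter beyond a molecule in each cell type (Ccdc36, Kif3a and Timm22, 12068 genes tested), 1 with libraries of the same treatment and number as a block (Ccl5), 16 with log2 molecules as a covariate (among them Ccdc36, Dcn, Ifng, Kif3a, Lrrc17, Mmp2, Pdgfra, Slc2a3, Tgfb3 and Timm22) and 4 with the macrophage share of CD8 libraries as a covariate (Ccdc36, Edn1, Kif3a and Timm22). With 1 library left out it stayed between 0 and 0. The count of 1 in TAMs became 2 in a fit per cell type (BC018473 and Lrrc17) and 3 with log2 molecules (BC018473, Ifng and Slc2a3), and ran from 1 to 2 with 1 library left out, where 2310061I04Rik was added without placebo replicate 1 and Htra1 without placebo replicate 5.

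The count of 0 in CD8 T cells became 1 in a fit per cell type (Gm6654) and 11 with log2 molecules, among them Ccdc36, Kif3a, Col3a1, Dcn and Pdgfra, and ran from 0 to 1 with 1 library left out (BC018473 without GABA replicate 2). The count of 1 for the mean response became 14 with DESeq2's Wald test, 2 with no filter (Fosb added), 4 with log2 molecules (Ifng, Mmp2 and Slc2a3 added) and 3 with the stroma share as a covariate (Htra1 and Klra18 added). It ran from 1 to 2 with 1 library left out, where Prmt1 was added without placebo CD8 replicate 2 and Fosb without placebo CD8 replicate 4 or 6. Ifng, listed for the interaction, TAMs and the mean response, stood at 0 in all placebo TAM libraries, with 16 of its 18 TAM molecules in GABA TAM replicate 1. It passed the minimum in TAMs only through GABA libraries, so these calls are not read as a response. The cause was not tested for any of these. Genes that only an alternative called were named after their values were seen.

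With the replicate number as a block the 4 counts were 0, 1, 0 and 1. Same-number pairs of TAM and CD8 libraries correlated at -0.02 to 0.13 with placebo and -0.02 to 0.33 with GABA over 2200 genes. Placebo and GABA libraries of the same number correlated at -0.19 to 0.49 in CD8 T cells, with 3 of 6 above 0.1, and at -0.39 to 0.20 in TAMs, with 2 of 6. Whether the number stands for a mouse or a batch cannot be told apart. A fit per cell type gives no interaction or mean response, and the block of treatment and number gives the interaction only.

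For 71 results of named genes, 2725 of 2727 alternative values kept their direction. Other values of named genes are outside this count, among them the mean response of Cdh1 (0.62, and -0.16 without GABA CD8 replicate 1). The mean response of Tnf (-0.18) was 0.16 with the stroma covariate, and ran from -0.37 to 0.31 with 1 library left out, above 0 without placebo CD8 replicate 3. The difference in log2 molecules was -0.0589 without placebo TAM replicate 1 and -0.01 without GABA TAM replicate 2. With 1 library left out, the log2 ratio of molecules ran from 0.21 to 0.48 in TAMs and from 0.19 to 0.33 in CD8 T cells, and the difference from -0.0589 to 0.21. The difference in NK cell marker share of CD8 libraries was 0.0650 on the log2 scale, and 5 of 18 marker comparisons had a library at 0 and no log2 value. The cause was not tested.

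Limits: each library holds RNA of 100 cells, so most genes have few molecules, in CD8 T cells above all. Responses under about the interval widths given were not detectable even without adjustment, and a call takes larger ones. Counts at an unadjusted p under 0.05 hold false positives and moved with single libraries. Counts over all genes moved too, and shares of all genes in percent come from the full data. A list's count with a library left out is therefore not comparable to such a share. GABA and placebo mice were compared at 1 time point and in 1 strain. Depth, stroma RNA and nuclear RNA varied among libraries within the groups, and their part in single genes was not separated. The spike-in RNA the labels describe is not in the table, so RNA per cell could not be measured.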
